A study of Mus musculus with 4 samples.

Results

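The genes described here are 10 components of the mammalian circadian clock and its PAR bZIP output: the activator gene Clock, the repressor genes Per1, Per2, Per3 and Cry1, the nuclear receptor genes Nr1d1 and Nr1d2, and the output transcription factor genes Hlf, Dbp and Tef. They were chosen by name, with earlier results of these data known. Each of the 10 was found with 1 probe set among the 19572 named probe sets (19505 genes) of the microarray. The samples were muscle progenitor cells, positive for CD29 and ITGA7 by flow cytometry, from C57Bl/6 mice aged 2 years (aged, 2 arrays) or 5 weeks (young, 2 arrays). All animals were of this strain with no other genotype or treatment named, and the young animals were juveniles, so that the comparison spans growth as well as ageing. Whether both arrays of an age stem from different animals is unstated in the labels, and p-values here cover only the spread among these 4 samples, which may be technical. The sources used here give neither the hour of the day at which tissue was taken nor the sex of the animals. For clock genes, age and hour of collection therefore cannot be told apart.

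The clock is a transcriptional feedback loop that most cells of the body run with a daily period. CLOCK and its partner BMAL1, encoded by Arntl, bind E-box elements and switch on the Per and Cry genes, whose proteins then repress them, while the REV-ERB receptors encoded by Nr1d1 and Nr1d2 repress Arntl through ROR elements. The PAR bZIP factors HLF, DBP and TEF are driven by this loop and bind D-box elements in further genes, and NFIL3 represses through the same elements. In skeletal muscle the clock is known to act in metabolism and in the stem cells that repair the tissue.

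Promoter sequences show which of these elements lie next to the genes measured. RefSeq promoters (build GRCm38.p6) were found for 9 of the 10 genes, with 13 start sites. The entry for Per2 was missing. The 250 bases before each start were searched on both strands for the E-box CACGTG, the related E-prime box CACGTT, the D-box as TTATGTAA or TTACGTAA, the ROR core motif AGGTCA and the cAMP response element TGACGTCA. No matches overlapped. Over all 32851 promoters of the table, 6.02% held the E-box, 3.85% the E-prime box, 0.931% the D-box, 14.0% the ROR core motif and 1.55% the cAMP response element. The promoters of 4 genes are printed: that of Hlf because it had the largest age difference, that of Nr1d1 because it differed most between the aged arrays, and those of Cry1 and Per3 because their young arrays lay furthest apart. Bases are 5′ to 3′ on the strand of the gene, and capitals mark the matched elements.
Hlf (chr11:90390918-90391167, minus strand): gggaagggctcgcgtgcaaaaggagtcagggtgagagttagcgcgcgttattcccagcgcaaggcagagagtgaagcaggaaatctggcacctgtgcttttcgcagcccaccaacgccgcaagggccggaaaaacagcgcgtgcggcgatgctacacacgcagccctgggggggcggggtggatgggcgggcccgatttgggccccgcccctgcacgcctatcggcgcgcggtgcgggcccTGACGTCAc
Nr1d1 (chr11:98775378-98775627, minus strand): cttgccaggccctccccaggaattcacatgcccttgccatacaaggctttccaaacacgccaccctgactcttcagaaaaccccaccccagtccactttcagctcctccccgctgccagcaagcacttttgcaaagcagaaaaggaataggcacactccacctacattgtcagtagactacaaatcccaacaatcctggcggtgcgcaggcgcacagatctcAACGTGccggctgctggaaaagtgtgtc
Cry1 (chr10:85185055-85185304, minus strand): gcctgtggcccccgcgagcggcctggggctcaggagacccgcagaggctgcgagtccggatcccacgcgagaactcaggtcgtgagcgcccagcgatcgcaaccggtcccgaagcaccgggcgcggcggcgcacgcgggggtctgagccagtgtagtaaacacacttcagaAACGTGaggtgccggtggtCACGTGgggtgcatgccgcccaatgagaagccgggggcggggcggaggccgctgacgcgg
Per3 (chr4:151044666-151044915, minus strand): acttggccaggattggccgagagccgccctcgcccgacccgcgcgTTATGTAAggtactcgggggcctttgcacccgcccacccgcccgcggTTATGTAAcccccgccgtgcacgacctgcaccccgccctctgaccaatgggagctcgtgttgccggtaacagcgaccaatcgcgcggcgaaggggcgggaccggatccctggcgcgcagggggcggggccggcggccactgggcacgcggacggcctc

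The Hlf promoter held the cAMP response element in the bases just before the start, the Nr1d1 promoter 1 E-prime box, the Cry1 promoter 1 E-box and 1 E-prime box, and the Per3 promoter 2 D-boxes of the same letters. Among the other genes, an E-box was found before both starts of Tef and before 1 of 2 starts of Per1, which also held a ROR core motif. A ROR core motif was found for Nr1d2 and for 1 of 3 starts of Clock. None of these letters was in the Dbp window. A match describes the letters and is not a shown binding site.

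Hlf was higher in aged cells by 1.52 log2 units, Per2 was higher by 0.75, and the other 8 genes did not differ at an unadjusted p under 0.05. Levels are the deposited log2 values, which reach above 19 and may be stretched, so differences (aged minus young) stay on the table's log2 scale, with no folds. In such bulk samples fewer cells of a type and less RNA per cell cannot be told apart. In a limma fit over all named probe sets no gene passed a Benjamini-Hochberg adjusted p of 0.05 (0% of probe sets), and the smallest adjusted p was 0.343. Members are therefore counted at an unadjusted limma p under 0.05. That count was 2 of 10, both higher in aged cells, where 7.35% of all named probe sets passed (3.36% higher and 3.99% lower). The groups did not overlap for the same 2 genes, against 36.6% of all named probe sets (18.2% with aged higher and 18.4% with aged lower). Of the 10 differences, 7 were positive, and their median was 0.19, beside 49.8% positive and a median of 0.00 over all named probe sets. Without aged replicate 2 the median of the 10 was -0.15, and without aged replicate 1 it was 0.47.

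**Figure D1:**
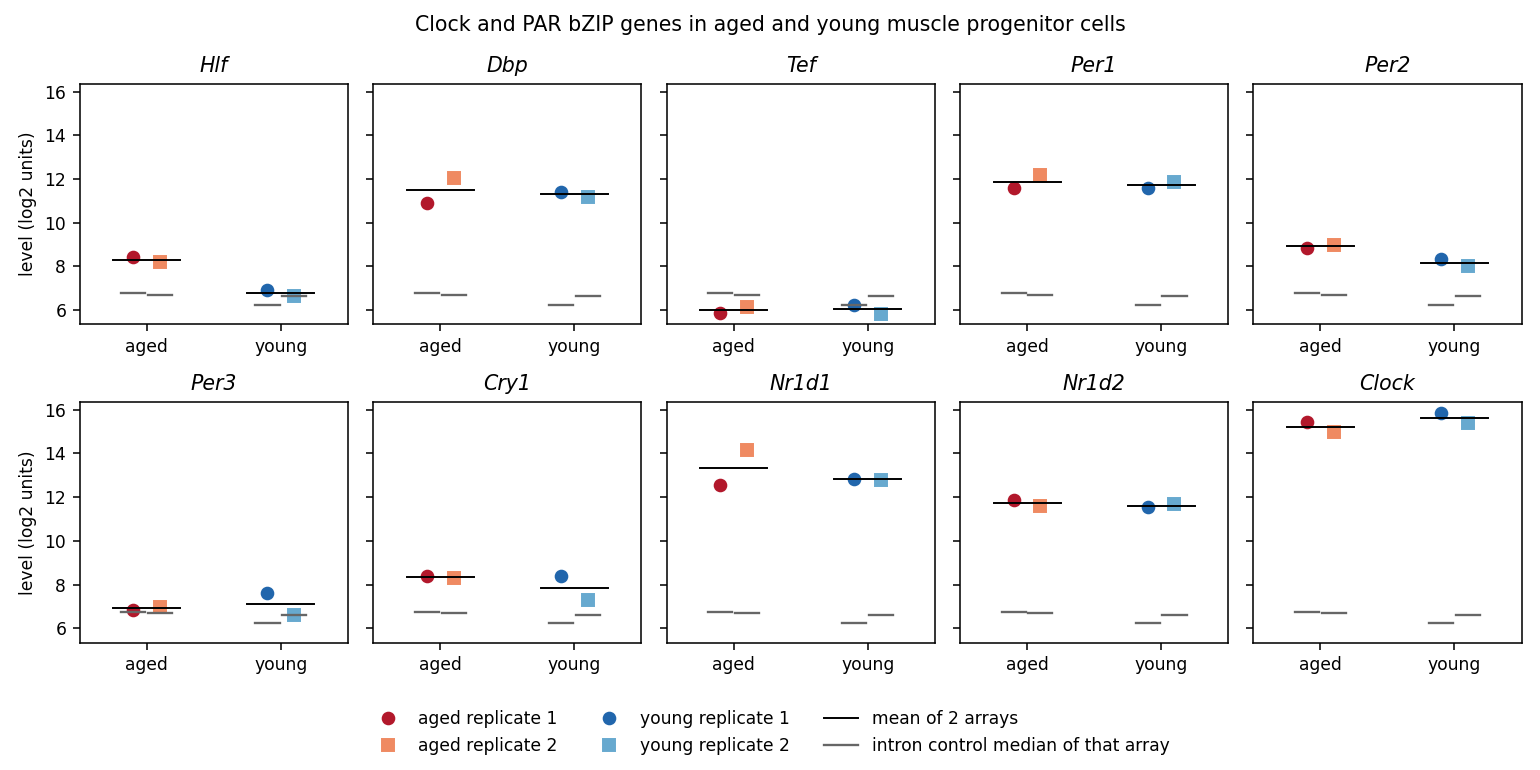
Level of each of the 10 genes in log2 units (vertical axis) on each array, with aged arrays at the left and young arrays at the right of a panel; black bars are means of 2 arrays and grey bars the median of the intron control probe sets of the same array. Hlf and Per2 show aged arrays above both young arrays, and Tef lies below the intron controls on every array.

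Intron control probe sets, which read sequence that is spliced out, give a measure of background. Their median was 6.76 and 6.68 on the aged and 6.25 and 6.62 on the young arrays. Of the 10 genes, 8 were above it on all 4 arrays. Per3 was above it on 3 arrays and at it on young replicate 2, and Tef was below it on all 4.

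Hlf encodes hepatic leukaemia factor, a PAR bZIP activator that is also known from blood stem cells. It was read at 8.43 and 8.19 on the aged and at 6.93 and 6.66 on the young arrays (probe set TC1100003529.mm.2). Both aged arrays stood well apart from both young arrays, and arrays of the same age differed by less than 0.3. Aged cells had a mean of 8.31 ± 0.17 and young cells one of 6.79 ± 0.19 (SDs over n = 2 arrays each). The difference was 1.52 ± 0.30 (SE), with a 95% interval of 0.78 to 2.26, an unadjusted limma p of 0.00256 and an adjusted p of 0.453. Among all named probe sets, 1.05% had a larger positive difference. The young readings lay close to background, 0.68 and 0.03 above the intron control median of their array, where the aged readings were 1.67 and 1.51 above it. The Hlf difference was 1.38 to 1.65 when each array was left out in turn, with unadjusted p under 0.05 each time. How well exon control probe sets stand above intron controls (used here to gauge array quality) was lower with age too (area under the curve of 0.792 and 0.819 in aged, 0.849 and 0.823 in young samples). With this quality measure as a covariate, which leaves 1 residual degree of freedom, the Hlf difference was 1.53 (unadjusted limma p of 0.0287). Blood cell markers also differed, 7 of 10 for neutrophils and 4 of 10 for macrophages being higher in aged cells at an unadjusted p under 0.05. Over all named probe sets, 3.36% were higher at that p. The macrophage markers counted were Ptprc, Cd14, Aif1 and Ctss. Of the counted markers, Csf3r (neutrophil) and Aif1 (macrophage) were below the intron control median on every array. Among the other macrophage markers, Lyz2 and Mrc1 were not called. Adgre1, Csf1r, C1qa and C1qb were not called either and were below that median on every array. The part of blood cells in the Hlf and Per2 differences was not tested.

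Dbp encodes the D-box binding protein, commonly used as a readout of clock output. Its level was 10.92 and 12.06 on the aged and 11.40 and 11.18 on the young arrays. The aged arrays lay on either side of both young arrays, so that the groups overlapped. The difference was 0.20 ± 0.44 (SE), with a 95% interval of -0.89 to 1.29, and it was -0.37 without aged replicate 2. Tef, the thyrotroph embryonic factor gene, was read at 5.87 and 6.15 on the aged and 6.25 and 5.84 on the young arrays. These readings are at background, and the difference of -0.04 ± 0.32 (SE) says nothing of a change.

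The Period genes encode the repressors that accumulate and close the loop. Per2 was read at 8.84 and 8.99 on the aged and at 8.32 and 8.01 on the young arrays (probe set TC0100002801.mm.2). Both aged arrays were above both young arrays, the gap between the nearest of them being smaller than that for Hlf. The difference was 0.75 ± 0.30 (SE), with a 95% interval of 0.01 to 1.48, an unadjusted limma p of 0.0469 and an adjusted p of 0.675. It was positive under all 13 alternatives run, but its unadjusted p was under 0.05 in 3 of them and above it in 10, including each fit without 1 array, where the difference was 0.60 to 0.90. Per1, the Period gene that responds fastest to outside signals, was read at 11.59 and 12.16 on the aged and 11.57 and 11.84 on the young arrays. Its groups overlapped, with a difference of 0.17 ± 0.34 (SE) and a 95% interval of -0.66 to 1.00. Per3 was read at 6.86 and 6.96 on the aged and at 7.61 and 6.62 on the young arrays. The young arrays enclosed both aged arrays, and the difference was -0.21 ± 0.40 (SE), or 0.28 without young replicate 1.

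Cry1 encodes a cryptochrome, the partner of the Period proteins in repression. Its level was 8.37 and 8.32 on the aged and 8.39 and 7.29 on the young arrays. Only young replicate 2 was low, and the other 3 arrays lay within 0.1 of each other. The difference was 0.51 ± 0.43 (SE), with a 95% interval of -0.55 to 1.56. Leaving out young replicate 1 gave 1.06 (unadjusted limma p of 0.0376) and leaving out young replicate 2 gave -0.04, so its value rests on which young array is used. Cell type markers also set young replicate 2 apart. It was the lowest array for 9 of 12 satellite cell markers, where 23% of all named probe sets had it lowest. Their mean level was 12.61 there, against 13.09 and 13.32 on the aged arrays and 13.59 on young replicate 1. Endothelial markers were highest there for 5 of 7, where 21.3% of all named probe sets were. The endothelial mean level was 9.53 there, against 7.82 and 6.78 on the aged arrays and 7.11 on young replicate 1. The part of these cell types in the Cry1 value was not tested.

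Nr1d1 and Nr1d2 encode REV-ERB alpha and beta. Nr1d1 was read at 12.54 and 14.15 on the aged and at 12.82 and 12.80 on the young arrays (probe set TC1100003688.mm.2). The young arrays were nearly equal, while aged replicate 2 stood above and aged replicate 1 below both. The difference was 0.54 ± 0.55 (SE), with a 95% interval of -0.82 to 1.89; it was 1.34 without aged replicate 1 (unadjusted limma p of 0.0179) and -0.27 without aged replicate 2. Nr1d2 was read at 11.86 and 11.58 on the aged and 11.56 and 11.67 on the young arrays, with overlapping groups. Its difference was 0.11 ± 0.29 (SE), with a 95% interval of -0.62 to 0.84. Clock was read at 15.43 and 15.00 on the aged and 15.86 and 15.37 on the young arrays. The difference was -0.40 ± 0.34 (SE), with a 95% interval of -1.24 to 0.44 and overlapping groups. Leaving out an aged array gave -0.62 (replicate 1) or -0.18 (replicate 2), and leaving out a young array gave -0.16 (replicate 1) or -0.65 (replicate 2). For the 8 genes whose p missed the threshold, these intervals do not show that the ages were alike.

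**Figure D2:**
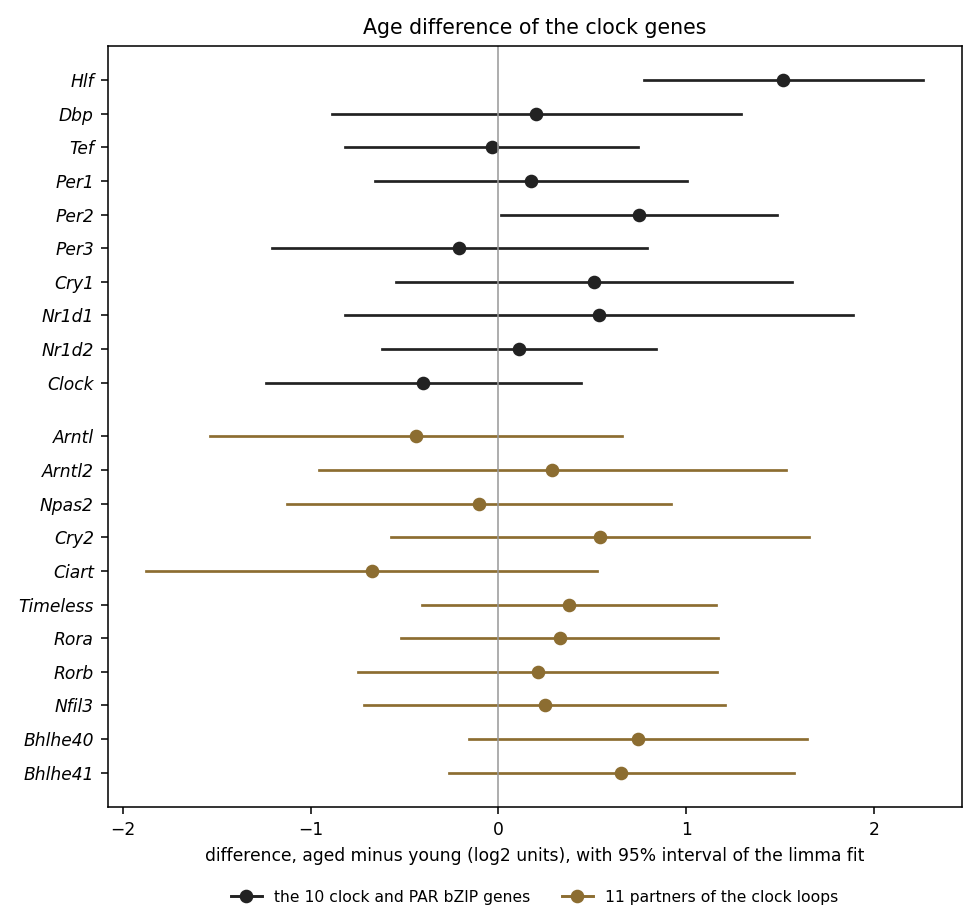
Difference between aged and young cells (horizontal axis, log2 units) for the 10 genes and 11 partners of the clock loops, as points with 95% intervals of the limma fit over all named probe sets. The intervals of Hlf (0.78 to 2.26) and Per2 (0.01 to 1.48) lie above 0, and all others include it.

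Of 12 further genes of the clock loops, 11 were measured, and 0 were at an unadjusted limma p under 0.05 (0 after adjustment; 0 to 2 unadjusted when each array was left out in turn). Over all named probe sets, the share at that p with all arrays was 7.35%. The median difference of the 11 genes was 0.29. Of them, 3 had groups that did not overlap, all with aged higher (18.2% of all named probe sets). These were Bhlhe40, Bhlhe41 and Timeless, and only Bhlhe40 was above the intron control median. Bhlhe40, encoding a repressor of E-box genes, was read at 13.94 and 13.84 on the aged and 13.54 and 12.75 on the young arrays, a difference of 0.74 ± 0.37 (SE). Leaving out young replicate 2 gave 0.35, and leaving out young replicate 1 gave 1.14. Bhlhe41, its paralogue, differed by 0.65 ± 0.37 (SE), with all readings below the intron control median. The activator gene Arntl was read at 11.77 and 10.60 on the aged and at 11.63 and 11.62 on the young arrays. Aged replicate 2 was the low array there, and the difference of -0.44 ± 0.44 (SE) was 0.15 without it and -1.03 without aged replicate 1. Cry2, the second cryptochrome gene, was read at 10.70 and 10.17 on the aged and 9.35 and 10.43 on the young arrays, and differed by 0.54 ± 0.45 (SE). That difference became 1.08 when young replicate 2 was left out and 0.00 when young replicate 1 was. Npas2, which can replace Clock, differed by -0.10 ± 0.42 (SE), and Nfil3, the D-box repressor gene, by 0.25 ± 0.39. Rora, encoding an activator of Arntl, differed by 0.33 ± 0.34 (SE) in its brightest probe set, the one counted above. Its other probe sets gave -0.03 and 1.21, so they disagreed. The probe set at 1.21 had an unadjusted limma p of 0.0358 and an adjusted p of 0.648. Ciart differed by -0.68 ± 0.49 (SE) and was above the intron control median on young replicate 2 only. Its difference was -0.10 without that array and -1.25 without young replicate 1 (unadjusted limma p of 0.0338). Leaving out an aged array gave -1.03 (replicate 1) or -0.32 (replicate 2), and the difference was -1.76 with the quality covariate (unadjusted limma p of 0.0174). Arntl2, Rorb and Timeless were below the intron control median on all 4 arrays, with differences of 0.29, 0.21 and 0.38.

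The aged arrays differed from each other in several clock genes, a pattern picked out after the values were seen. Nr1d1 was 1.61 higher on aged replicate 2 than on aged replicate 1, and 2.14% of all named probe sets had a larger gap in either direction. Dbp was 1.14 higher there, and Usp2, a ubiquitin protease gene that follows the clock in many tissues, was 1.47 higher. Larger gaps in either direction were held by 7.35% of named probe sets for Dbp and 3% for Usp2. Arntl was 1.17 lower on aged replicate 2, a gap that 6.65% of named probe sets exceeded. Set against the mean of the other 3 arrays, aged replicate 2 stood 1.43 higher for Nr1d1, 1.51 higher for Usp2, 0.89 higher for Dbp, 0.50 higher for Per1, 1.08 lower for Arntl and 0.56 lower for Clock. It was the highest of the 4 arrays for 4 of the 10 genes (Dbp, Per1, Per2 and Nr1d1) and the lowest for 1 (Clock), where 21.3% and 25.9% of all named probe sets had it highest and lowest. Other members did not follow or had small gaps. Nr1d2 was 0.28 lower on aged replicate 2 than on aged replicate 1. The same gap was -0.24 for Hlf, -0.05 for Cry1, 0.10 for Per3, 0.14 for Per2 and 0.29 for Tef. It was 0.57 for Per1 and -0.43 for Clock. Over all named probe sets the median absolute gap between the aged arrays was 0.36. Markers of several cell types differed between the aged arrays too. The mean neutrophil marker level was 8.998 on aged replicate 1, 10.89 on aged replicate 2, and 6.65 and 5.82 on the young arrays, with aged replicate 2 highest for 9 of 10. T and NK cell markers had a mean level of 6.11 on aged replicate 1, 7.60 on aged replicate 2, and 5.58 and 5.53 on the young arrays. Mature fibre markers went the other way and by more, with a mean level of 13.23 on aged replicate 1, 10.74 on aged replicate 2, and 10.98 and 10.59 on the young arrays, aged replicate 1 being the highest for all 11. Their part in the clock gene pattern was not tested.

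**Figure D3:**
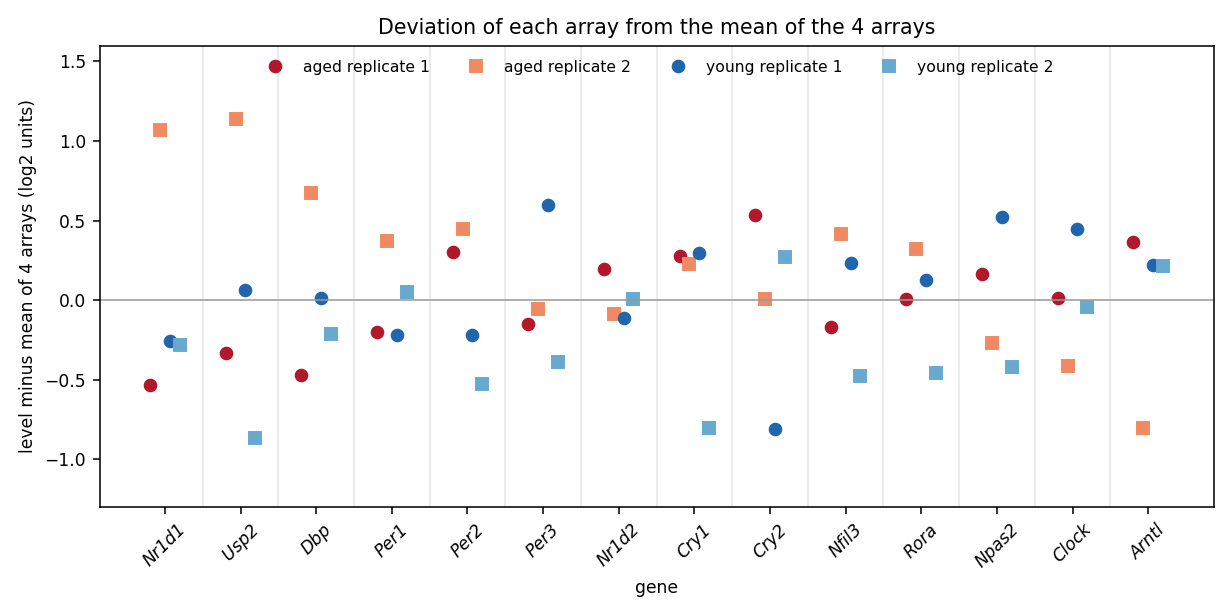
Level of each array minus the mean of the 4 arrays (vertical axis, log2 units) for 14 genes, with 1 point per array and gene. The genes were picked among members and partners of the clock loops, with Usp2 added, and leave out Hlf and Tef. Aged replicate 2 stands highest for Nr1d1 (1.07), Usp2 (1.14) and Dbp (0.67) and lowest for Arntl (-0.81). By less, it is also highest for Per1, Per2, Nfil3 and Rora and lowest for Clock.

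Among enzymes and other proteins that modify clock proteins, 16 of 18 genes were measured. Where 7.35% of all named probe sets were at an unadjusted p under 0.05, 1 of these genes was. This was Csnk1d, the casein kinase 1 delta gene, whose product phosphorylates Period proteins. It was read at 14.71 and 14.51 on the aged and at 12.95 and 13.47 on the young arrays, with both aged arrays higher. The difference was 1.41 ± 0.33 (SE; unadjusted limma p of 0.00538, adjusted p of 0.477), and it was 0.99 with the quality covariate (unadjusted p of 0.0948). Its paralogue Csnk1e differed by 0.03 ± 0.33 (SE). The list's median difference was 0.07.

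Genes that cycle in many tissues or are known targets of clock factors had differences of either sign. Of 14 listed, 12 were measured, and the median difference was 0.14. At an unadjusted p under 0.05, 1 was higher and 1 lower, beside 3.36% and 3.99% of all named probe sets. Tspan4, a tetraspanin gene, was read at 11.63 and 11.78 on the aged and 10.12 and 10.79 on the young arrays, a difference of 1.25 ± 0.35 (SE; adjusted limma p of 0.537). Its unadjusted p was 0.141 with the quality covariate, 0.0547 without aged replicate 2 and 0.0626 without young replicate 1. Tsc22d3, which encodes the glucocorticoid-induced leucine zipper, was read at 10.41 and 10.53 on the aged and 11.60 and 12.17 on the young arrays. Both aged arrays were lower, with a difference of -1.41 ± 0.33 (SE; adjusted limma p of 0.477). Usp2 differed by 0.80 ± 0.58 (SE), with 13.82 and 15.29 on the aged and 14.22 and 13.28 on the young arrays; it was 0.07 without aged replicate 2. Wee1, a mitotic checkpoint kinase gene driven by the clock, differed by -0.75 ± 0.35 (SE).

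Of 9 genes known to follow the clock in muscle or myoblasts, 8 were measured, with a median difference of -0.18. Where 7.35% of all named probe sets were at an unadjusted p under 0.05, 1 of these genes was. This was Myod1, the myogenic determination factor gene and a target of CLOCK and BMAL1. It was read at 8.31 and 9.41 on the aged and 9.98 and 10.07 on the young arrays, all aged readings being lower. The difference was -1.16 ± 0.43 (SE; adjusted limma p of 0.647), and it was -0.62 without aged replicate 1, -1.71 without aged replicate 2 and -0.57 with the quality covariate. Its unadjusted p was above 0.05 in 5 of the 13 alternatives, among them the fits without aged replicate 1, young replicate 1 or young replicate 2.

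Per1 also answers to glucocorticoids and to cAMP, and both lists held differences of either sign. Among 10 glucocorticoid targets, all measured, the median difference was 0.04. Of these, 2 were lower at an unadjusted p under 0.05, Tsc22d3 and Fkbp5, beside 3.99% of all named probe sets. Fkbp5, a cochaperone gene of the glucocorticoid receptor, was read at 5.60 and 5.85 on the aged and 6.64 and 6.99 on the young arrays, and both aged readings were below the intron control median. Its difference was -1.09 ± 0.31 (SE; adjusted limma p of 0.545), with an unadjusted p of 0.0760 with that covariate, 0.0634 without aged replicate 1 and 0.0655 when young replicate 2 was left out. Among 9 measured genes of 11 listed as cAMP targets, the median difference was 0.27. At an unadjusted p under 0.05, Ppargc1a and Nr4a3 were higher and Rgs2 was lower, beside 3.36% and 3.99% of all named probe sets. Ppargc1a, encoding the mitochondrial coactivator PGC-1 alpha that also acts with ROR factors on Arntl, was read at 11.91 and 11.40 on the aged and 10.002 and 10.23 on the young arrays. The difference was 1.54 ± 0.33 (SE; adjusted limma p of 0.465), and 1.10 with the covariate (unadjusted p of 0.0683). Rgs2, a regulator of G protein signalling, differed by -1.44 ± 0.29 (SE), and Nr4a3, a nuclear receptor gene, by 0.79 ± 0.31. The unadjusted p of Nr4a3 was above 0.05 in 7 of the 13 alternatives, for example 0.188 without aged replicate 1.

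Immediate early genes, which tissue dissociation induces, gave no call. Of 14 measured, 0 were at an unadjusted limma p under 0.05 (0 after adjustment), beside 7.35% of all named probe sets. The median difference was 0.04. Btg2, an antiproliferative gene, had the smallest p of the list. It was read at 14.41 and 13.82 on the aged and 14.94 and 14.53 on the young arrays, and differed by -0.62 ± 0.35 (SE). Egr1 differed by 0.39 ± 0.31 (SE) and Fos by -0.20 ± 0.30.

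For the labelled cell type, 12 satellite cell markers were looked at, all measured and all above the intron control median on every array. So were all measured fibro-adipogenic and pericyte and smooth muscle markers, so this does not tell these cell types apart. Mean levels of pericyte and smooth muscle markers were 13.58 and 13.07 on the aged and 13.59 and 12.63 on the young arrays. Those of satellite cell markers were 13.09 and 13.32 on the aged and 13.59 and 12.61 on the young arrays. Their median difference was 0.11, with 0 at an unadjusted limma p under 0.05 (0 after adjustment). The sign of this median rests on the young arrays: dropping replicate 1 of them gave 0.61, and dropping replicate 2 gave -0.23. Markers of other cell types differed on the same arrays. At an unadjusted p under 0.05, 7 of 10 neutrophil and 4 of 10 macrophage markers were higher in aged cells. So were 3 of 7 T and NK cell and 3 of 5 B and plasma cell markers, while 3 of 8 fibro-adipogenic markers were lower. Over all named probe sets, 3.36% were higher and 3.99% lower at that p. The median difference was -0.74 for fibro-adipogenic markers, 3.93 for neutrophil, 1.38 for T and NK, 1.21 for B and plasma cell and 0.95 for macrophage markers. When each array was left out in turn, it was 2.25 (without aged replicate 2) to 4.96 for neutrophil, 0.75 (without aged replicate 2) to 2.86 (without aged replicate 1) for T and NK, 0.28 (without aged replicate 1) to 1.33 for macrophage, 1.02 to 1.402 for B and plasma cell and -1.13 (without young replicate 1) to -0.80 for fibro-adipogenic markers. With all 4 arrays, the median was 1.12 for 11 mature fibre, -0.73 for 7 endothelial, 0.21 for 8 pericyte and smooth muscle and -0.29 for 3 Schwann cell markers, with 0 at an unadjusted limma p under 0.05 in each (0 after adjustment). These values moved with single arrays. The mature fibre median was 0.04 when aged replicate 1 was dropped and 2.27 when aged replicate 2 was. The endothelial median moved to -1.92 (young replicate 1 dropped) or 0.14 (young replicate 2 dropped). Dropping an aged array gave -1.43 (replicate 1) or -0.48 (replicate 2). For pericyte and smooth muscle markers, dropping a young array gave a median of 0.62 (replicate 1) or -0.19 (replicate 2), and dropping an aged array gave 0.05 (replicate 1) or 0.48 (replicate 2). The Schwann cell median ranged from -0.66 without young replicate 2 to 0.21 without young replicate 1. Below the intron control median on every array were 5 macrophage, 3 neutrophil, 2 T and NK cell and 2 B and plasma cell markers. So were 2 of the 3 Schwann cell markers, Mbp and S100b. The mean macrophage marker level was 7.31 and 6.47 on the aged and 6.19 and 5.80 on the young arrays.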

How the data were processed

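RNA of sorted muscle progenitor cells was hybridised to 4 whole-transcript Affymetrix arrays, 2 per age. The authors deposited log2 probe set levels (28846 entries), made with RMA and the Transcriptome Analysis Console per the submitters' processing notes; the sources used here give no versions and no genome build. The number of arrays limits the precision. Names came from the platform annotation: 19572 probe sets carried 1 symbol and were tested, while 2634 unnamed transcript clusters and 6640 controls were not. Where a gene had several (55 genes), the brightest over the 4 arrays was kept.

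The age contrast was fitted by limma 3.58.1 under R 4.3.3 (lmFit, eBayes, two-sided, group as the only term, no filter), and p-values were adjusted by Benjamini-Hochberg over all 19572 probe sets. SE is the fit's standard error. The fit was tested on simulated data. The 10 genes and 17 further lists (176 genes in all, 160 measured) were chosen with earlier results of these data known, so lists are described by counts and medians, with no test. Named genes are all members, all clock partners, and from the other lists those at an unadjusted p under 0.05 or, where a list had none, up to 4 with the smallest p; Csnk1e, Usp2, Wee1, Fos and the array pattern were picked after values were seen. Alternatives were median centring, a further quantile normalization, leaving out dim probe sets, trended and robust variance priors, the replicate block, an exon against intron covariate, all entries, probe set means and leaving out each array.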

Additional observations from a re-analysis of the deposited data

How the results depend on the processing

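Hlf kept its direction and an unadjusted limma p under 0.05 in all 13 alternatives. The number of the 10 genes at that p was 2, and it was 1 with median centring, the filter on dim probe sets (which dropped Tef), a trended prior, the replicate block, the exon against intron covariate and all entries, each time without Per2; leaving out arrays gave 1 to 2. The median of the 10 was 0.71 with the covariate and -0.15 to 0.47 without single arrays. Over all genes, 2 probe sets passed adjustment with the replicate block, leaving out arrays gave 0 to 1, and 868 of 10208 were at an unadjusted p under 0.05 after the dim filter, against 1438. For same-numbered arrays the labels give only a shared number. The correlation of their deviations was -0.05 over all named probe sets. Whether such arrays shared a batch was not tested.

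Signs turned with the covariate for Tef (0.37), Per3 (0.42) and Nr1d2 (-0.13), and it raised Dbp to 1.01, Nr1d1 to 1.51, Cry1 to 1.11 and Per1 to 0.36, with no unadjusted p under 0.05 among these 4. Without single arrays the range was -0.24 to 0.17 for Tef, -0.70 to 0.28 for Per3, -0.031 to 0.25 for Nr1d2, -0.37 to 0.77 for Dbp, -0.11 to 0.46 for Per1, -0.27 to 1.34 for Nr1d1, -0.65 to -0.16 for Clock and -0.041 to 1.06 for Cry1. The list medians then ranged from -0.050 to 0.15 for clock protein modifiers, -0.089 to 0.10 for glucocorticoid targets and -0.071 to 0.11 for immediate early genes, each changing sign. The covariate leaves 1 residual degree of freedom, as does the block, and a fit without an array leaves 1 array in a group, assumed to vary like the other age. The cause of these changes was not tested. Readings near the intron controls (Tef, Per3, young Hlf) limit the size of a difference that could be seen.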
